A study of Rattus norvegicus with 6 samples.

Results

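The control cultures of this study were primary heart muscle cells of newborn rats that had received a scrambled small interfering RNA (si-NC), and they are described here on their own, as a baseline transcriptome of the neonatal cardiomyocyte culture. The genes described were selected on their measured levels: an annotated gene was taken as expressed where its FPKM, the fragment count scaled for gene length and for the depth of the library, reached 1 in all 3 si-NC libraries. That held for 7892 of 32883 annotated genes (24.0%) among the 43035 features listed, of which the other 10152 were unannotated transcripts added by the authors. Because the levels themselves chose these genes, the values below are a description and carry no test.

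Cardiomyocytes were isolated from Sprague-Dawley rats at postnatal day 1 by the labels (1 to 2 days old in the study's methods), cultured in medium with 10% fetal bovine serum and collected 48 h after transfection, as 3 biological replicates by the labels. The second arm of the study, a knockdown of the kinase DYRK1A, was not compared here. The study's methods describe a differential attachment step, after which the cells still in suspension were plated, and name no selection of cardiomyocytes by a marker. Each library is therefore bulk mRNA of a mixed culture, in which fewer cells of a type and less RNA per cell cannot be told apart. The labels do not say whether the replicates came from separate litters, isolations or dishes.

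The newborn rat heart is in transition. Its cardiomyocytes beat with a sarcomere that still carries fetal forms of several proteins, they take energy from glucose and lactate while the mitochondrial oxidation of fatty acids is being built up, and they leave the cell cycle within the first weeks of life. A heart also holds fibroblasts, endothelial cells, smooth muscle cells and pericytes, epicardial cells and resident macrophages, and fibroblasts in particular attach and divide well in serum.

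The si-NC libraries held 10325074, 11751575 and 11921772 counts in replicates 1, 2 and 3, and the expressed genes took 82.1, 82.2 and 82.1% of them. In FPKM, which is already scaled for depth, the median log2 difference of an expressed gene between libraries lay between -0.01 and 0.01. Triplets of levels below are FPKM, in which a short gene needs fewer counts for the same level, in si-NC replicates 1, 2 and 3 in this order. The gene silenced in the study's other arm, Dyrk1a, held 3, 0 and 1 counts in its own row here, while an unannotated transcript on its strand at the same place held FPKM of 10, 10.5 and 11.

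That split was common, and it limits what a low value means. An unannotated transcript on the same strand covered at least 50% of the span of 6885 of the 22250 protein-coding genes (30.9%). Of these covered genes 707 (10.3%) were expressed by the rule and 3700 (53.7%) were at 0 in all 3 libraries, against 6452 (42.0%) and 4212 (27.4%) of the 15365 genes that were not covered. For 3499 covered genes with fewer than 10 counts in every library, the covering transcripts reached 10 counts. In another 1916, the gene and its covering transcripts were both under 10 counts in every library. Genes that every cell uses were among the covered genes listed at 0. Gapdh, a glycolytic enzyme, was listed at 0 under a transcript at 62.7, 22.9 and 79.2; Eef1a1, the main translation elongation factor, was listed at 0 under one at 86.7, 74.3 and 97; and Ctnnb1, beta-catenin, was listed at 0 under one at 0.105, 0.0312 and 0.0308. A 0 in this table is therefore given only as a listed 0. How reads over overlapping features were counted is not stated, and its part in these values was not tested.

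**Figure D1:**
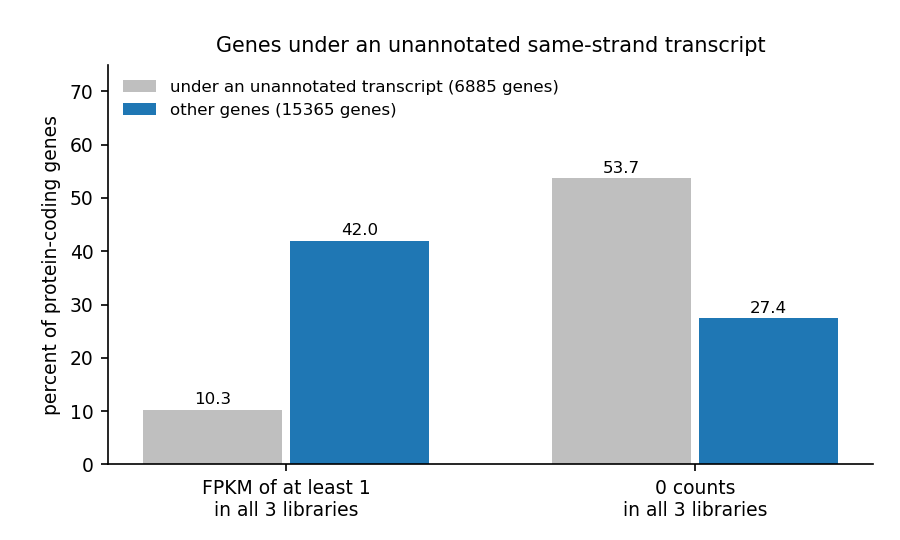
Bars show the percent of protein-coding genes with FPKM of at least 1 in all 3 si-NC libraries (left pair) and with 0 counts in all 3 (right pair), for the 6885 genes covered over at least 50% of their span by an unannotated transcript on their strand (grey) and for the 15365 other genes (blue). Of the covered genes 10.3% were expressed and 53.7% were at 0, against 42.0% and 27.4% of the others.

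The most abundant annotated genes belonged to the mitochondrion, the ribosome and the heart muscle cell. First by mean FPKM was Mt-nd3, a subunit of respiratory complex I made in the mitochondrion, at 9909, 8240.3 and 10473. Second came Nppa, the gene of atrial natriuretic peptide, a hormone of atrial and fetal ventricular muscle, at 7988, 8858 and 8557, or 8468 ± 442 (SD, n = 3). Next was Actc1, cardiac alpha-actin of the thin filament, at 6707, 6654 and 6615, and its 3 values spanned so little that the coefficient of variation (CV, the SD as a percent of the mean) was 0.693%. Among the 30 highest genes were 12 genes of cytosolic ribosomal proteins, led by Rps29 (5102, 5476 and 5582), and 6 encoded by the mitochondrial chromosome. Besides Nppa and Actc1, the cardiac genes in that group were Myl3, the ventricular essential myosin light chain (2501, 2791 and 2519), Ankrd1, a Z-disc and nuclear stress-response protein (2264, 2402 and 2336), and Nppb, the gene of B-type natriuretic peptide (2244, 2090.4 and 2408).

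The rest of the 30 highest genes came from no single cell type. They were Tpt1 (translationally controlled tumour protein, mean FPKM 4104), Tmsb4x (thymosin beta-4, which binds actin monomers, 3462), Actb (beta-actin, 2519.5), Atp5b (a catalytic subunit of ATP synthase, 2476), Lgals1 (galectin-1, 2079), Ppia (cyclophilin A, 2013) and Col1a1. The last of these, the main chain of type I collagen made by fibroblasts, took the most counts of any expressed gene, a mean of 163647, and its FPKM was 2378, 2809 and 2155, highest in replicate 2. The 30 genes together held 18.3, 18.1 and 19% of all FPKM in the libraries, and the 100 highest held 33.6, 33.4 and 34.6%. The median expressed gene had a mean FPKM of 11.7, while 861 genes reached 100 and 74 reached 1000.

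**Figure D2:**
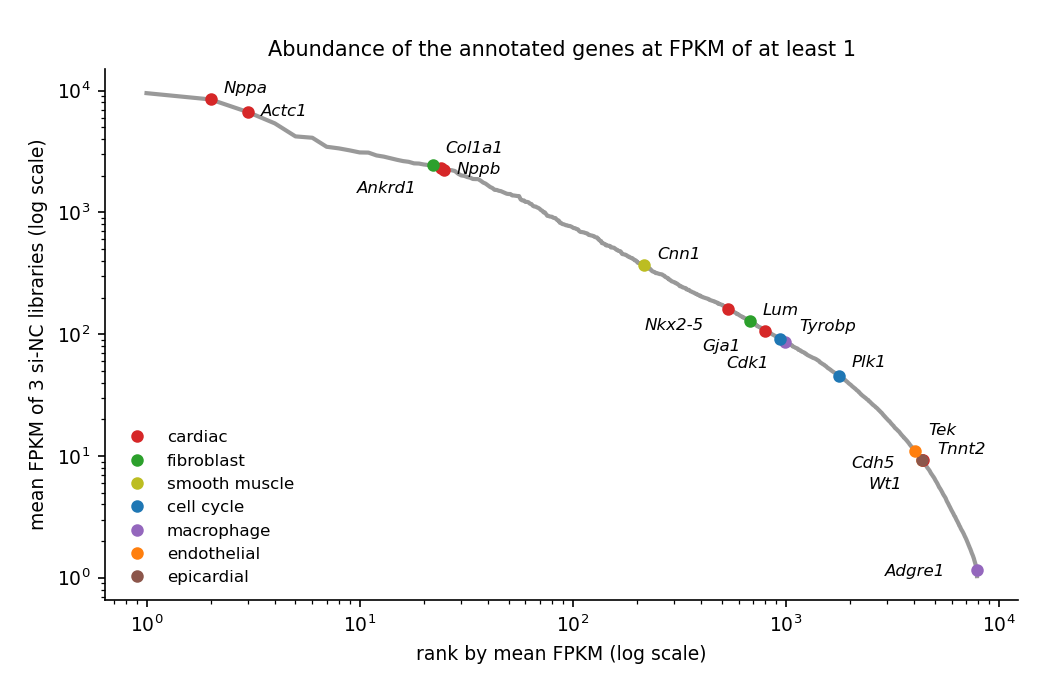
Mean FPKM of the 3 si-NC libraries (vertical, log scale) against the rank of each of the 7892 expressed genes (horizontal, log scale), with named genes coloured by the list they belong to. Nppa and Actc1 stand at ranks 2 and 3, Col1a1 at rank 22, the macrophage gene Tyrobp at rank 992 and the endothelial gene Cdh5 at rank 4369.

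Most sarcomere genes whose annotated row could be read were abundant. The thick filament, thin filament and Z-disc lists held 37 genes with a row, and 18 of them were expressed. All 13 genes that no unannotated transcript covered were among these 18, as were 5 of the 24 covered genes. Of the 13, 10 had a mean FPKM above that of the median expressed gene, and Myh7b, Myom3 and Nebl lay below it. Together the lists took 2.96, 3.11 and 2.87% of all FPKM. For the list counts here and below, 32.2% of all protein-coding genes were expressed, 42.0% of those not covered and 10.3% of those covered. A list near these shares does not stand out by its count.

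Of the thin filament, 7 of 9 genes were expressed. Actc1 led, and Tnnc1, the calcium-binding troponin C of heart and slow muscle, followed at 1865, 1880.3 and 1903. Acta1, the skeletal alpha-actin that the perinatal heart co-expresses, stood at 557, 639 and 548, highest in replicate 2. Lower came Tpm1, alpha-tropomyosin (199.7, 189.9 and 208), Tnni1, the slow skeletal troponin I of the fetal heart (55.8, 55.7 and 61.2), and Tnnt2, cardiac troponin T (9.66, 10.3 and 7.63), all 3 of them covered genes. The transcript over Tpm1 had 0 counts in every library. Nebl, nebulette, a Z-disc protein that binds the thin filament, was near the threshold (1.54, 1.13 and 1.13). The level of Tnnt2 was far below that of its partner Tnnc1 in every library. Tnni3, the adult cardiac troponin I, and Tmod1, a cap of the filament's pointed end, were listed at 0, and both were covered.

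Of the thick filament only 3 of 12 genes were expressed: Myl3, Myh7b, a slow myosin heavy chain whose transcript carries a microRNA (6.89, 6.14 and 6.03), and Myom3, an M-band protein (1.47, 1.41 and 1.77). Myh6 and Myh7, the alpha and beta cardiac myosin heavy chains that lie side by side, were listed at 0 in every library. Both lay under a single unannotated transcript that covered 7 annotated genes and had FPKM of 7.74, 5.93 and 6.95. Myl2, the ventricular regulatory light chain, was listed at 0 with its covering transcript at 3.11, 3.44 and 3.39, and Mybpc3, cardiac myosin-binding protein C, with its own at 0.497, 0.441 and 0.468. No level of cardiac myosin heavy chain can be given from these rows.

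At the Z-disc and costamere, 8 of 16 genes were expressed, 6 of 6 of those not covered. After Ankrd1 came Des, the muscle intermediate filament desmin (1036, 1080.1 and 979.9), Actn2, the alpha-actinin that cross-links actin at the Z-disc (444, 487 and 430.3), and Myoz2, a calcineurin-binding Z-disc protein (257, 284 and 275). Flnc, filamin C (117, 126 and 102), and Bag3, a co-chaperone for damaged Z-disc proteins (67.1, 74.5 and 63.4), were lower. With Ankrd1 these 6 genes were all highest in replicate 2. Ldb3 (0.59, 0.467 and 0.475), Csrp3 (0.148, 0.0657 and 0) and Nexn (listed at 0), other Z-disc proteins, were covered and under 1.

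Promoters of 4 of the most abundant sarcomere and natriuretic genes are shown here because the CArG box or the TATA box lies near their start. The sequences are RefSeq promoters on assembly GRCr8, each from 120 bases before to 20 bases after the annotated start, 5′ to 3′ on the gene's strand. Capitals mark the CArG box, the binding motif of serum response factor, and the TATA box TATAAA.
Nppa, chr5:163712064-163712203, plus strand: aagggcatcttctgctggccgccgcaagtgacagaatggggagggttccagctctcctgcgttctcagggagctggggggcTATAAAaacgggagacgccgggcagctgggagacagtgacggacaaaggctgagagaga
Actc1, chr3:121271808-121271947, minus strand: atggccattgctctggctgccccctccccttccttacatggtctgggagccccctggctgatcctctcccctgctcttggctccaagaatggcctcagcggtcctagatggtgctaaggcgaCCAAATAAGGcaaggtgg
Acta1, chr19:68784175-68784314, minus strand: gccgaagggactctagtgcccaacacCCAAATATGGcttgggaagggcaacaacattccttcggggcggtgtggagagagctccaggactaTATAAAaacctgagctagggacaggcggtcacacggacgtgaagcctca
Myl3, chr8:119616974-119617113, plus strand: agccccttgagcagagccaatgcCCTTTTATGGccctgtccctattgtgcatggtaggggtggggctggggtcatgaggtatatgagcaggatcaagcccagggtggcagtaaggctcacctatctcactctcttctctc

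Within the full windows of 300 bases (250 before and 50 after the start, both strands read), a CArG box was present in 4 of the 16 expressed sarcomere genes with a promoter in the table (25%): Acta1, Actc1, Myl3 and Nebl. It was in 0 of the 5 expressed natriuretic genes. By symbol 5244 of the 7726 names of expressed genes were found in the table. Over all its 27457 promoters the share was 1.64%, and over those of expressed genes it was 1.30%. Among immediate early genes, 3 of 8 held the box (37.5%), with 2 copies in Egr1. TATAAA was in 14.3% of all promoters and in 7.80% of those of expressed genes. Among the 5 expressed natriuretic genes 3 held it, Nppa, Nppb and Nppc. Counted from the start, it began at base -39 in Nppa and -48 in Nppc. In Nppb it lay farther away, at base -208, and on the other strand. These matches are letters in a window and say nothing of occupancy in the cultures.

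The natriuretic system was dominated by its ligands. Of the list 5 of 8 genes were expressed, and Nppa exceeded Nppb by several fold in each library. Nppc, the C-type peptide, was low at 2.51, 2.89 and 2.12. Npr1, the guanylyl cyclase receptor of the A and B-type peptides, stood at 15.9, 18.1 and 15, and Corin, the membrane protease that cuts the Nppa precursor, at 2.28, 3.09 and 2.11. The clearance receptor Npr3 was listed at 0 under a transcript at 15.9, 15.9 and 17.1. Summed over the list the libraries gave FPKM of 10254, 10973 and 10985, or 1.88, 2.04 and 1.96% of all FPKM.

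Calcium handling genes of the sarcoplasmic reticulum were clearly present. Atp2a2, the SERCA2 pump that refills the store, had FPKM of 481, 499 and 471. Casq2, the calcium buffer of the cardiac store, was at 379, 380.1 and 380.3 and belonged to the 5 least variable genes, with a CV of 0.133%. Pln, phospholamban, the brake on the pump, was at 168, 168 and 189. The list also held Tmem38a, a potassium channel of the store (42.1, 43.1 and 45.4), Hrc, a histidine-rich calcium-binding protein (12.6, 13.2 and 12.6), and Trdn, triadin (10.9, 11.8 and 11.7). In all, 8 of 18 genes were expressed, and 5 of 5 of those not covered. Ryr2, the release channel (0.0449, 0.00569 and 0.0224), Cacna1c, the pore of the L-type channel (0, 0.0105 and 0), and Slc8a1, the sodium-calcium exchanger (0.0629, 0.0279 and 0.0826), were covered and near 0, with transcripts over them at 0.0474, 4.05 and 24.5 in the mean.

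Of the ion channels and connexins 9 of 18 genes were expressed. Gja1, connexin 43 of the working myocardium, led at 106, 107 and 108, followed by Gja5, connexin 40 of atria and conduction system, at 26.9, 27.3 and 27.4. Potassium channel genes were lower: Kcnq1 (11.4, 11.6 and 11.2), Kcnd3 (8.4, 8.3 and 8.89) and Kcnj11 (6.01, 6.28 and 4.9), which carry slow delayed, transient outward and ATP-sensitive currents. Hcn2, a pacemaker channel gene, was at 10.8, 11.4 and 9.85, whereas Hcn4, the main one of the sinus node, was covered and at 0.0344, 0.0153 and 0. At the intercalated disc, Vcl, vinculin, stood highest (210.4, 235 and 215), and the desmosomal genes Dsg2 (26.3, 28.4 and 25.5), Dsp (14.2, 14.2 and 13.1) and Dsc2 (11.3, 12.5 and 11.7) were lower. The list had 5 of 10 genes expressed, and Cdh2, N-cadherin, was listed at 0 under a transcript at 10.5, 9.25 and 8.9.

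The cardiac transcription factor list had 7 of 21 genes expressed (33.3%), near the 32.2% of all protein-coding genes, with 16 of the 21 covered. Nkx2-5, the homeobox factor of heart muscle, was by far the highest at 169, 163 and 154. Next were Irx4, a ventricular homeobox factor (23.1, 24.5 and 21.8), Myocd, the coactivator myocardin (14.8, 16.1 and 13.4), and Srf, the factor that binds the CArG box (13.2, 13.2 and 13). Hey2, a ventricular repressor, had 6.93, 7.41 and 7.25, Hand1 had 4.67, 4.31 and 3.07, and Gata4 had 2.26, 3.09 and 2.6. Tbx20 and Mef2a, both under 1 in their own rows, lay under transcripts at 76.2, 82.8 and 76.9 and 29.8, 33 and 30.9.

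Markers of both chambers were expressed. Ventricular genes not covered were Myl3, Irx4, Hey2 and Lrrc39, an M-band protein (4.46, 4.55 and 4.97), all expressed, and Kcnip2, a channel subunit of the later heart (0, 0 and 0.0298), which was not. On the atrial list Nppa, Gja5, Nr2f1, an atrial nuclear receptor (11.3, 11.7 and 12.9), and Kcnj3, a channel subunit of the acetylcholine response (2.91, 3.23 and 3.05), were expressed. Nppa and Gja5 are also made by fetal ventricular muscle. Bmp10, a growth factor of atrial muscle after birth, stayed just under the threshold at 0.931, 0.954 and 0.69. The pacemaker list had 2 of 9 genes expressed, Vsnl1 (2.41, 3.14 and 2.75) and Shox2, a sinus node factor (1.53, 1.57 and 1.66).

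Maturation was read from 19 pairs of sister genes, in most of which one form is used more before birth and the other in the adult heart. Casq1 and Casq2 are instead skeletal and cardiac forms, and Myl7 and Myl2 atrial and ventricular ones, with Casq2 and Myl2 counted here as mature. Actc1 is the mature form of 2 pairs, against Acta1 and Acta2. In 8 pairs both genes were expressed, and the mature form was higher in 2 of them and the immature form in 6, with every library of one form above every library of the other. In 7 pairs a single form was expressed, the mature one in 3 and the immature one in 4, and the other gene was covered and under 1, so that its listed value does not place it. The remaining 4 pairs had both genes at or near 0. In 14 of the 19 pairs at least one gene was covered. The 5 pairs with neither gene covered are the ones whose ratio is least limited: 4 of them had the immature form higher and 1 the mature form.

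Actins were the exception. Actc1 exceeded Acta1 by 11.5 times in the means, and the log2 ratio was 3.59, 3.38 and 3.59, or 3.52 ± 0.12 (SD, n = 3). The other 4 readable pairs were metabolic genes. For lactate dehydrogenase, Ldha, the form of tissues that make lactate, had 1196, 1243 and 1223 and Ldhb, the form of the adult heart, 636, 630.02 and 647, a log2 ratio of -0.94 ± 0.04 (SD, n = 3). For cytosolic creatine kinase, Ckb, the brain and fetal form, had 368, 383 and 367 and Ckm, the muscle form, 62.7, 64.7 and 54.5, a log2 ratio of -2.62 ± 0.11. Among subunits of cytochrome c oxidase the general form Cox8a had 1492, 1378 and 1616 and the heart form Cox8b 80.7, 93.3 and 102, 16.3 times less in the means. The other subunit pair was nearly balanced: Cox6a1 had 1945, 1986 and 1928 and the heart form Cox6a2 1387, 1314 and 1548, with log2 ratios of -0.488, -0.596 and -0.317, all of 1 sign.

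In 3 further pairs both genes were expressed but the mature one was covered. Slc2a1, the GLUT1 glucose transporter, had 128, 134 and 122 against 3.03, 3.03 and 3.22 for Slc2a4, the insulin-sensitive GLUT4. Igf2, the fetal growth factor, had 42.4, 41.3 and 39.9 against 2.57, 2.06 and 3.28 for Igf1, which lay under a transcript at 36.8, 34.9 and 39 and came to 37.4, 35.5 and 39.9 with it added, just under Igf2. Casq2 at 379, 380.1 and 380.3 exceeded Casq1, the skeletal form, at 158, 161 and 156, and the log2 ratio varied least among the 8 pairs with both genes expressed, 1.26 ± 0.02. The transcript over Casq2 had 0 counts in every library. In pairs with a member listed at 0 only levels can be stated: Tnni1, Pgam1 (449.6, 455 and 461), Eno1 (854, 909.5 and 865) and Cox7a2 (935, 749 and 1078) were expressed, while their mature partners Tnni3, Pgam2, Eno3 and Cox7a1 were at or near 0 and covered. The reverse held for Hk2 (36.5, 35.7 and 35.8) and its partner Hk1, listed at 0 under a transcript at 19.1, 21.3 and 19. Myl4, Acta2 and Myl7, further forms counted as immature, and both Cpt1a and Cpt1b, carriers of fatty acids into mitochondria, were also covered and at or near 0. The calcium channel genes Cacna1h and Cacna1c were so as well. Several immature forms, among them Ldha, Ckb and Slc2a1, are made by non-muscle cells too, and the share of each cell type in their levels was not measured.

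**Figure D3:**
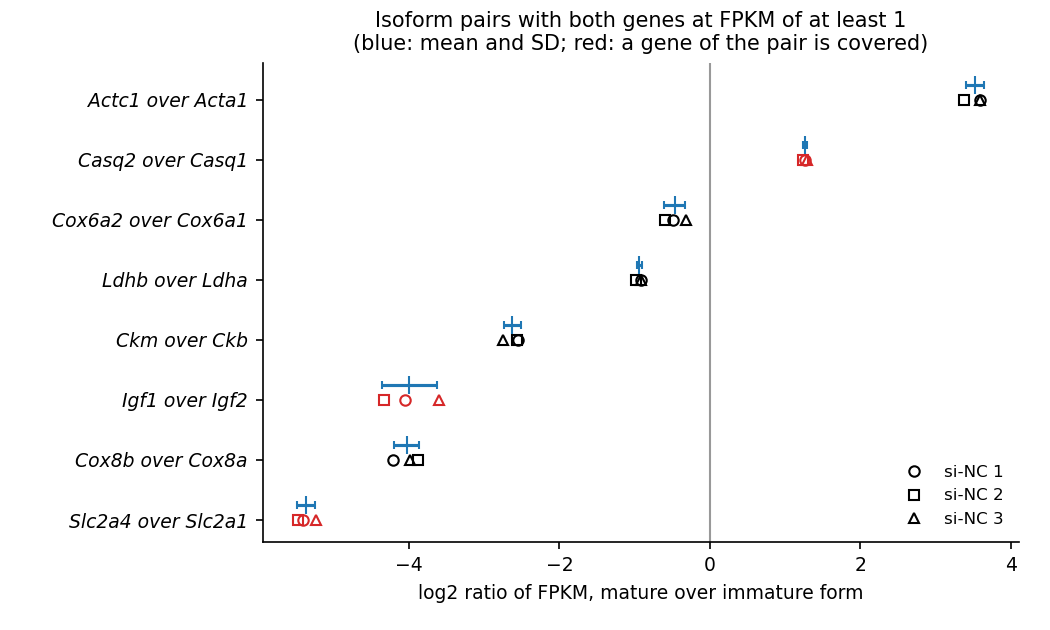
Log2 ratio of FPKM, mature over immature form, for the 8 pairs with both genes expressed: symbols are the si-NC libraries, the blue mark above them is the mean with its SD, and red pairs hold a covered gene. Actc1 over Acta1 and Casq2 over Casq1 (cardiac over skeletal) lie right of 0, the other 6 pairs left of it, and the libraries of a pair lie close together.

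Genes of oxidative phosphorylation took a larger share of FPKM than of counts. Nuclear genes of oxidative phosphorylation held 5.21, 5.13 and 5.43% of all FPKM and 2.3, 2.24 and 2.39% of all counts, with 56 of 85 genes expressed and 55 of 61 of those not covered. Atp5b (2438, 2485 and 2506), Cox6a1, Cox8a, Cox6a2, Cox7c (1213, 1248 and 1303) and Cox6c (1207, 964 and 1367) led it, and Cox8a, Cox6a2 and Cox6c were each lowest in replicate 2. The 13 protein genes of the mitochondrial chromosome held 4.56, 3.96 and 4.89% of FPKM and 1.96, 1.69 and 2.15% of counts. Their levels were very uneven for genes cut from shared precursor transcripts: Mt-nd3 stood at 9541 in the mean, Mt-nd2, Mt-nd1 and Mt-cyb stood at 4212, 3356 and 2871, Mt-co1 at only 109, 44.3 and 198, and Mt-nd4, Mt-cox3 and Mt-atp6 were listed at 0. An unannotated transcript that covered 12 features of the chromosome had FPKM of 1.43, 0.747 and 2.87. These rows are therefore not a measure of the relative abundance of mitochondrial messages.

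Glycolysis had 15 of 20 genes expressed, holding 0.989, 1.04 and 0.966% of all FPKM. Ldha led, before Eno1, Aldoa, the muscle-type aldolase (806, 865 and 799), and Pgk1, phosphoglycerate kinase (711, 743 and 733). Of the genes not covered 12 of 12 were expressed. Fatty acid oxidation had 15 of 23 genes expressed and 15 of 16 of those not covered. Fabp3, the heart fatty acid-binding protein, was highest at 482, 476 and 528, and the flavoprotein Etfa (213, 207 and 229), the long-chain and medium-chain dehydrogenases Acadl (191, 194 and 207) and Acadm (122, 119 and 132), Etfb (182, 188 and 179) and Hadha of the trifunctional enzyme (171, 174 and 171) followed. Ucp3, an uncoupling protein, was the one gene not covered that stayed near 0 (0, 0.0245 and 0.0966).

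Of the tricarboxylic acid cycle 12 of 15 genes with a row were expressed, 12 of 12 of those not covered. Idh3g, Cs, which encodes citrate synthase, and Sucla2 were covered and below the threshold. The expressed levels ran from Mdh2 (414, 445 and 444) down to Suclg1 (119.99, 124 and 126), a range of only a few fold over 12 enzymes. Of the energy transfer genes, Slc25a4, the muscle ADP/ATP carrier, was highest (1345, 1351 and 1395), above Slc25a5, the carrier of dividing cells (438, 454 and 466), and Vdac1, the outer membrane channel (322, 329 and 338). Regulators of mitochondrial genes were expressed at lower levels: Esrra (75.9, 76.4 and 70.7), Tfam (57.7, 58.7 and 67.3), Ppargc1a (6.07, 6.62 and 5.86) and Ppara (3.84, 4.12 and 3.75). Ckmt2, the mitochondrial creatine kinase of muscle, straddled the threshold (0.909, 0.874 and 1.33), and Mb, myoglobin, was listed at 0 under a transcript at 0.201, 0.0593 and 0.175.

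Of the 48 gene lists, ribosomal proteins held the largest share of FPKM. Cytosolic ribosomal protein genes held 10.9, 10.5 and 11.3% of all FPKM, with 54 of 104 rows expressed. By counts their share was 4.05, 3.83 and 4.27%, and collagens, with 3.44, 3.84 and 3.19%, were above them in replicate 2. After Rps29 came Rpl36 (3122, 2848 and 3724), Rps23 (3047, 2971 and 3311), Rpl35 (3115, 2878 and 3306), Rpl34 (3047, 2401 and 3366) and Rps14 (2714, 2664 and 2732). Rpl34 and Rpl36 were lowest in replicate 2 and highest in replicate 3. Of the 58 rows not covered 49 were expressed, and of the 46 covered rows 5 were. Ribosomal protein genes have many near-identical processed copies, so their values are uncertain. Rps27a has 2 rows: the one on chromosome 14 had 2371, 1709 and 1387 and the one on chromosome 5 had 541, 736 and 1724, opposite in order, and whether reads were split between them was not tested. Of the translation factors 7 of 13 rows were expressed, among them Eef1g (1546, 1673 and 1538) and Eef2 (1232, 1253 and 1176).

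Marker lists of 18 cell types held 56 expressed genes, from muscle, stromal, immune and vascular lists. The share of a list expressed ran from 0% (B cell, adipocyte) to 75% (macrophage, lymphatic endothelial, epicardial), against 32.2% of all protein-coding genes. T cell markers, at 33.3%, were near that share. Cardiomyocyte markers had the highest summed FPKM, 12809, 14026 and 13417, most of it Nppa. By counts the order was the reverse, 2.36, 2.65 and 2.16% for fibroblast and 1.25, 1.35 and 1.28% for cardiomyocyte markers. Of the cardiomyocyte markers 4 of the 4 not covered were expressed, Nppa, Myl3, Tnnc1 and Actn2. Fibroblast markers came next by FPKM, with 5 of the 5 not covered expressed. Col1a1 and Col3a1, fibrillar collagens, were at 2447 and 1878 in the mean. More restricted fibroblast genes were lower: Lum, the proteoglycan lumican (129, 121 and 134), Tcf21, a transcription factor of cardiac fibroblasts and epicardium (72.2, 64.4 and 75.2), and Dpt, dermatopontin (22.7, 21.7 and 21.7). Dcn (3.77, 3.49 and 3.66) and Postn (2.15, 1.85 and 2.03) were covered and low, and Pdgfra, Thy1 and Ddr2 were listed at 0, Ddr2 under a transcript at 36.6, 37.1 and 35. The summed FPKM of the whole list was 4475, 5008 and 4170.4, highest in replicate 2 as for Col1a1 itself.

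Of the smooth muscle markers 3 of 7 and of the pericyte markers 3 of 7 were expressed, including 2 of 2 and 3 of 3 of those not covered. Cnn1, calponin of smooth muscle, was at 367, 368 and 371, and Actg2, enteric gamma-actin, at 128, 129 and 124. The other expressed smooth muscle marker, Tagln, was covered and low, at 2.17 in the mean. Acta2, Myh11, Smtn and Lmod1, genes of contractile smooth muscle, were listed at 0, all covered. Their covering transcripts were at 0, 0.0426, 0 and 0.0578 in the mean, so neither row gives a level. Mcam, an adhesion molecule of mural and endothelial cells, was at 172, 175 and 167, and Cspg4, the NG2 proteoglycan, at 18.2, 20.5 and 15.4. Kcnj8, a potassium channel of pericytes, was at 8.46, 7.57 and 7.47. The other 4 pericyte genes were covered: Rgs5 (0.232, 0 and 0.102) and Pdgfrb (0.05, 0.0592 and 0.0584) were under 1, and Notch3 and Abcc9 were listed at 0. On the wider list of contractile smooth muscle genes 7 of 15 were expressed, with Cnn2 (276, 304 and 280.4), Synpo2 (80.3, 79 and 70.7) and Itga8, an integrin of smooth muscle and myofibroblasts (41.3, 42.2 and 41.6), after Cnn1.

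Epicardial genes were all expressed where not covered, 6 of 6. The highest was Aldh1a2, which makes retinoic acid (31.3, 30.2 and 35), followed by Krt19, a keratin (24, 26.8 and 23.4), Lrrn4 (13.8, 13.3 and 12.4) and Msln, mesothelin (13.4, 12.3 and 12.7). Wt1, the transcription factor of the epicardium, was at 9.49, 9.36 and 9.13, and Upk3b, a mesothelial surface protein, at 6.95, 6.59 and 5.87. Macrophage genes were likewise expressed wherever not covered, 9 of 9: Tyrobp, an immune signalling adaptor (84, 85.1 and 91.7), Lyz2, lysozyme (78.4, 73.9 and 70.1), C1qa of complement (21.9, 22.9 and 20.1), Csf1r, the growth factor receptor of macrophages (16.3, 18.1 and 17.7), and Mrc1, a mannose receptor of resident cells (10.6, 12.4 and 12.1). Adgre1, the F4/80 antigen, was just above the threshold (1.1, 1.16 and 1.2). The 3 libraries gave nearly the same summed level of this list, 228, 233 and 232.

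Endothelial markers were expressed at low levels, 7 of 11 genes. The receptors Tek (10.9, 10.7 and 11.1) and Tie1 (8.87, 8.83 and 8.03), the junction proteins Cdh5 (9.49, 9.76 and 8.74) and Esam (9.31, 9.55 and 8.64), Kdr, the main vascular growth factor receptor (6.58, 5.75 and 5.1), and Emcn, endomucin (4.85, 5.22 and 5.08), lay between 5.05 and 10.9 in the mean. Vwf, von Willebrand factor, was on the threshold (1.1, 1.31 and 0.763), and Cldn5 and Flt1 were listed at 0. Cldn5 is not covered but lies opposite to Cdc45, also listed at 0. On the lymphatic list Pdpn, podoplanin, which other cells also make, was at 80.1, 84.1 and 89.4, Flt4 at 15.6, 15.3 and 14.1 and Lyve1 at 1.97, 2.21 and 2.91, and Prox1, its defining factor, was listed at 0 and covered.

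Cells of the blood and nerves left little. T cells had 2 of 6 genes expressed, Cd8a (2.46, 2.55 and 2.16) and Lck (1.56, 1.83 and 1.44), while the defining Cd3d, Cd3e and Cd3g reached at most 0.154. B cells had none of 4, with Cd79b highest (0.157, 0.419 and 0.413). Among neutrophil genes S100a8 alone was expressed (1.26, 2.24 and 2.87), and among mast cell genes Kit alone (11.6, 13.1 and 12), a receptor that other cells carry as well. Both rows named Hba-a2, alpha globin, were expressed, the higher at 31.4, 28.5 and 44.9, highest in replicate 3, while Hbb, beta globin, had 0.144, 0.383 and 0.126. Schwann cell genes S100b (8.83, 9.26 and 9.58) and Mbp (8.34, 6.95 and 8.24) were expressed, but Sox10, their defining factor, was at 0.251, 0.306 and 0.11. Of neurons only Tubb3 was expressed (30.9, 32.8 and 29.5), with Th (0, 0.0477 and 0) near 0.

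No adipocyte gene was expressed, 0 of 5 in all 3 libraries, with Cidec highest (0.241, 0.25 and 0.246). The liver gave only Ttr, transthyretin (2.3, 1.92 and 2.85), with Alb, albumin, at 0.551, 0.489 and 0.402. Skeletal muscle gave Tnnt3 (5.17, 6.02 and 8.16) and Tnnc2 (1.26, 3.03 and 2.98), fast troponins, while the determination factors Myod1 (0.293, 0.433 and 0.299) and Myog (0.394, 0.524 and 0.402) were under 1.

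**Figure D4:**
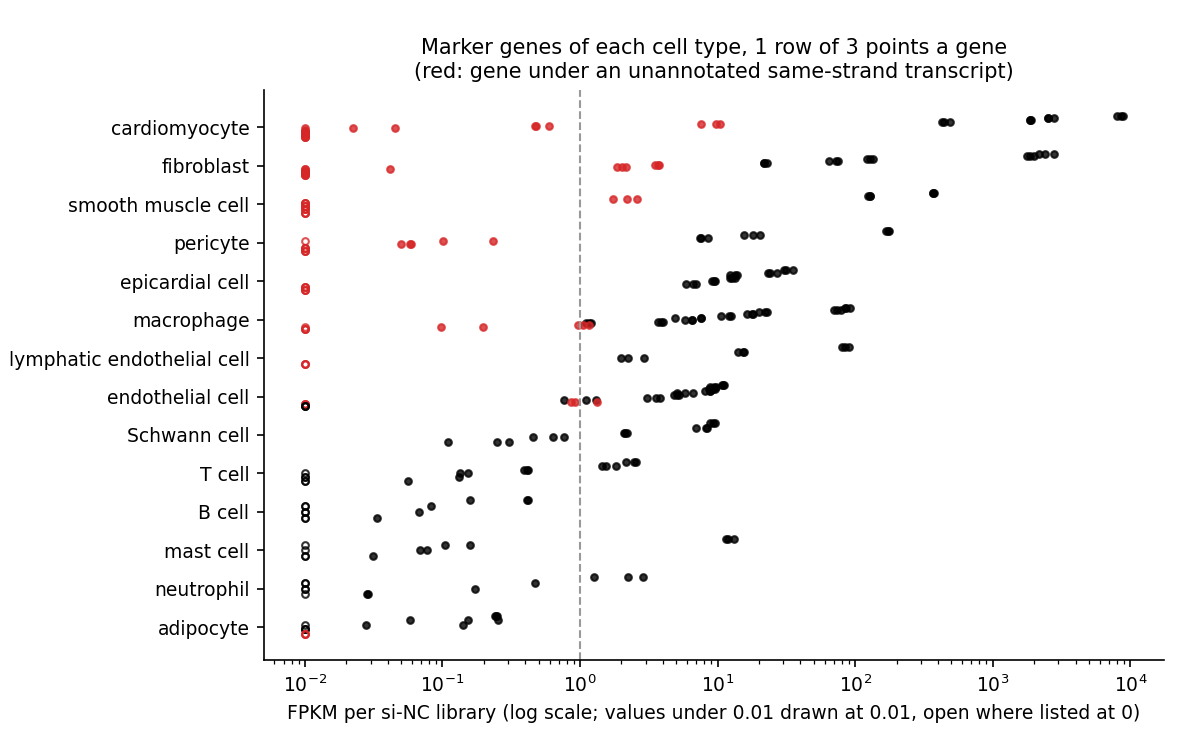
FPKM of each marker gene in each si-NC library (horizontal, log scale) for 14 of the 18 cell type lists, with 1 row of 3 points a gene. Genes under an unannotated same-strand transcript are red and hold most values at the left edge, where values under 0.01 are drawn and open points are listed at 0. The dashed line is the threshold of 1, and cardiomyocyte and fibroblast genes reach above 1000 while T cell, B cell and adipocyte genes lie mostly under 1.

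Some matrix genes were abundant. Collagens had 20 of 44 genes expressed, and 15 of 26 of those not covered. The median expressed collagen had a mean FPKM of 9.26, below the 11.7 of the median expressed gene. Collagens held 1.15, 1.3 and 1.05% of all FPKM and 3.44, 3.84 and 3.19% of all counts, both highest in replicate 2. Besides Col1a1 and Col3a1 the list was led by Col4a1 of the basement membrane (1081, 1238 and 1037), Col6a2 (517, 527 and 484), Col5a2 (191, 201 and 192) and Col11a1 (62.5, 65.1 and 64.8), minor fibrillar and microfibrillar chains. The matrix glycoprotein and crosslinker list had 20 of 31 genes expressed, 16 of 16 of those not covered. Its highest were Mgp, an inhibitor of calcification (1470.1, 1434 and 1509.6), Serpinh1, the collagen chaperone (1327, 1461 and 1351), Bgn, biglycan (1080.2, 1164 and 1055), and Ctgf, connective tissue growth factor (674, 685 and 695). Timp2, a protease inhibitor (533, 572 and 564), and Nid1 of the basement membrane (521, 532 and 533) followed. Listed at 0 under abundant transcripts were Thbs1 (271, 293 and 282), Loxl2 (101, 94.9 and 99.5) and Mmp14 (72.2, 74 and 76.1). The cytoskeleton list of all cells had 11 of 16 genes expressed and held 2.47, 2.58 and 2.54%, with Vim, the intermediate filament of mesenchymal cells, at 1797, 1950.2 and 1888, above the level of desmin in every library.

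Genes of the cell cycle were expressed broadly. Of the list 21 of 30 genes were expressed, 20 of 20 of those not covered and 1 of 10 covered ones. Of the regulators of entry Cdk4 (223, 231 and 228) was highest, and its partners Ccnd3 (180.4, 208 and 178) and Ccnd2 (156, 167 and 153), cyclins D3 and D2, were near the replication gene Pcna, the polymerase clamp (183, 172 and 190.5). Lower replication genes were Rrm1, a subunit of ribonucleotide reductase (97.8, 98 and 98), and the helicase subunits Mcm6, Mcm3, Mcm4 and Mcm5 between 25.6 and 57.5 in the mean. Mitotic genes were at comparable levels: Cdk1 (86, 90.5 and 98.3), Ccnb1, cyclin B1 (70.3, 65.1 and 66.8), Cdc20 (60.6, 61 and 57.9), Top2a, a topoisomerase (55.1, 55.2 and 58.2), Birc5, survivin (52.9, 54.9 and 59.9), and Plk1 (44.6, 44.4 and 47.6). Aurkb, a kinase of cytokinesis, was lower (16.1, 17.9 and 18.3). Mki67, Aurka, Cenpf and Ccnd1 were listed at 0, and all of them were covered. Among CDK inhibitors only Cdkn2a was expressed (4.05, 4.51 and 2.18), 5 of the 6 with a row being covered. Which cells carried these messages was not measured.

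Promoters of 4 mitotic genes are shown because most expressed cell cycle genes hold the box CCAAT near their start. They are RefSeq sequences on GRCr8 over the same interval as above, and capitals mark CCAAT, written ATTGG where it lies on the other strand.
Cdk1, chr20:19265173-19265312, plus strand: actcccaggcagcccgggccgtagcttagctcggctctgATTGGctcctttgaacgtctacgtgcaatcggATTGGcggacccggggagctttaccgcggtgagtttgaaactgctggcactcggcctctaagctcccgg
Ccnb1, chr2:33655206-33655345, minus strand: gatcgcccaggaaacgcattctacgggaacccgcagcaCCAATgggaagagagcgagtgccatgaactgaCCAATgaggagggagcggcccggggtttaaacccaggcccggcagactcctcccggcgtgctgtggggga
Plk1, chr1:186147538-186147677, plus strand: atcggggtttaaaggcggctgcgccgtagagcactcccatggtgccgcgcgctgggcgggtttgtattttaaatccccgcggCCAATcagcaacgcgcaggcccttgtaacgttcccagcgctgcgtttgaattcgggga
Top2a, chr10:84473074-84473213, minus strand: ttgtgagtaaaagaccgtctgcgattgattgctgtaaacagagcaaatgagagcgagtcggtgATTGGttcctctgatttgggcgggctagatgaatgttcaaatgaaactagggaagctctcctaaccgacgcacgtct

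In the windows of 300 bases CCAAT stood in 14 of the 17 expressed cell cycle genes with a promoter in the table (82.4%), against 37.7% of all promoters and 38.5% of those of expressed genes. In Mcm6 a CCAAT overlaps a CArG box. The GC box GGGCGG was in 15 of the 17 (88.2%), against 34.9% of all promoters and 62.9% of those of expressed genes. Of the 38 ribosomal protein promoters 10 held CCAAT (26.3%), and none held a CArG box.

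Signalling and stress genes were expressed in part. Of the immediate early genes 12 of 19 were expressed. Egr1 led (242, 240.5 and 229), before Junb (194, 199 and 178), Jund (194, 193 and 167), Ier3 (169, 172 and 189), Jun (77.2, 80.2 and 73.3) and Btg2, an antiproliferative factor (74.6, 75.1 and 73.3), and Fos was listed at 0 under a transcript at 8.1, 7.16 and 7.21. Heat shock proteins and chaperones had 9 of 18 rows expressed. They included the folding enzymes of the endoplasmic reticulum P4hb (912, 944 and 922), Pdia3 (742, 770.4 and 791) and Hspa5 (716, 746 and 731) and the small heat shock proteins of muscle Hspb1 (738, 818 and 702) and Hspb7 (296, 341 and 292). Hspa9, the mitochondrial chaperone, was at 258, 267 and 265.

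All redox and metal-handling genes with a row except Fth1 were expressed, 12 of 13. Prdx1, a peroxiredoxin (639, 635 and 673), Mt2A, a metallothionein (554, 442 and 638), Sod1 (315, 293 and 357), Gpx1 (209, 216 and 206), Hmox1 (156, 174 and 161) and Sod2 (152, 141 and 146) led. Fth1, ferritin heavy chain, lies within the span of Best1 on the other strand and was listed at 0 in all 3 libraries. Interferon response genes had 7 of 13 genes expressed. Ifi27 stood alone at 554, 576 and 503, and Ifit2 (16.9, 17.6 and 16.6), Isg15 (17.7, 18.2 and 13.7), Ifit1 (5.74, 7.01 and 5.35), Rsad2 (4.04, 4.37 and 2.68) and Ifit3 (3.58, 3.92 and 3.09) were low and each lowest in replicate 3. Among imprinted and fetal growth genes 8 of 17 were expressed. Igf2r, which clears the growth factor Igf2, was highest (408, 426 and 391), and Mest (95.7, 95.6 and 98.4), Ndn (69.5, 68.6 and 70.7), Igf2bp3, a fetal RNA-binding protein (26.2, 23.4 and 24.6), and Hmga2, a fetal chromatin protein (13.8, 11.6 and 14), were expressed beside Igf2.

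Most expressed genes coded for protein, 7159 of 7892, which was 32.2% of the protein-coding genes annotated. The other 733 included 172 small nucleolar RNAs, 123 pseudogenes and 102 processed pseudogenes, 108 long intergenic RNAs and 91 microRNA genes. Many of these are short, and FPKM is counts per length: 313 expressed genes rested on a mean of fewer than 10 counts, and 272 of these were not protein coding. In contrast 5594 expressed genes had a mean of at least 100 counts. At the threshold itself, the nearest genes inside were Ccdc96 (1.4, 1.0 and 1.17), Ctnnd2 (1.43, 1.67 and 1.0) and Sdr42e1 (1.35, 1.0 and 1.85), and the nearest outside were Kcnc1 (1.29, 0.997 and 1.03), Mstn, myostatin, a brake on muscle growth (1.63, 0.997 and 1.11), and Smarce1, a chromatin remodelling subunit (1.15, 0.996 and 1.03). In each of the 6 the lowest library decided the side, and it was replicate 2 or 3. A further 778 annotated genes had a mean FPKM of at least 1 without reaching it in every library.

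The 3 libraries were close replicates. Over the 7892 expressed genes the Pearson correlation of log2 FPKM between library pairs was 0.986, 0.988 and 0.988, a description across genes that share their libraries. Of the 5594 genes with at least 100 counts in the mean, 57, 27 and 25 differed by more than 2-fold between replicates 1 and 2, 1 and 3, and 2 and 3. The median CV of these genes was 5.58%, and 32 had a CV over 50%. The biological coefficient of variation fitted by edgeR over 15383 features was 10.2%.

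Spread followed depth. For genes with a mean of 100 to 300 counts the median CV was 8.84%, against 7.58% expected from counting alone. At 1000 to 3000 counts it was 4.03% against 2.48%, and above 10000 counts 3.98% against 0.767%. At high depth the libraries thus differed beyond counting error. The expected value is 100 divided by the square root of the mean count. A median CV of 3 values tends to fall below it, so the comparison understates spread beyond counting. As a check for repeated deposits of a library, the chi-square of counts per degree of freedom was 4.43, 3.77 and 5.87 for the 3 pairs, where 2 counts of 1 library would give about 1.

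The most variable genes were few and mostly set by 1 library. Nupr1, a stress-induced chromatin protein, had 1334, 53 and 67 counts, high in replicate 1 alone, and the largest CV, 154%. Ebna1bp2, a ribosome assembly factor, was also high in replicate 1 alone (25.4, 1.3 and 1.09). Tma7, a small translation-associated protein (19.2, 4.15 and 193), and Impad1, a phosphatase of the Golgi (4.85, 1.99 and 30.3), were high in replicate 3 alone. The other 6 of the 10 largest were the pseudogene AABR07067506.1 (51.4, 8.58 and 6.84), LOC100911186 (7.04, 23.8 and 1.05), Snrpg of the splicing machinery (71.9, 5.52 and 25.5), Pnpla2, a fat-mobilising lipase (10.7, 3.98 and 1.41), LOC100910130 (22.6, 1.41 and 17.9) and Mt-co1. Names that are placeholders (LOC, AABR and the like) made up 20 of the 32 genes with a CV over 50% (62.5%), against 324 of all 5594 (5.79%). Whether such rows share reads with copies elsewhere was not tested.

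At the steady end, Rrm1 (97.8, 98 and 98), Lrpap1, a receptor chaperone (52.4, 52.3 and 52.4), Casq2, Hapln1, a link protein of the matrix (6.78, 6.78 and 6.79), and Prkaa1, the catalytic subunit of AMP-activated kinase (31.1, 31 and 31), had CVs between 0.104% and 0.187%. That is less than counting error alone would give at their depth, and they were picked as the extremes of 5594 genes. Lists differed in spread as well: the median CV of expressed members was 15.2% for the mitochondrially encoded genes, 14.4% for the interferon response and 8.87% for ribosomal proteins, against 3.34% for glycolysis and 3.92% for the cell cycle. Larger medians came from lists with 1 or 2 expressed genes, up to 38.2% for neutrophils. The lists were not compared at equal depth: the median FPKM of expressed members was 6.03 for the interferon response, 128 for glycolysis and 2145 for the mitochondrially encoded genes.

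**Figure D5:**
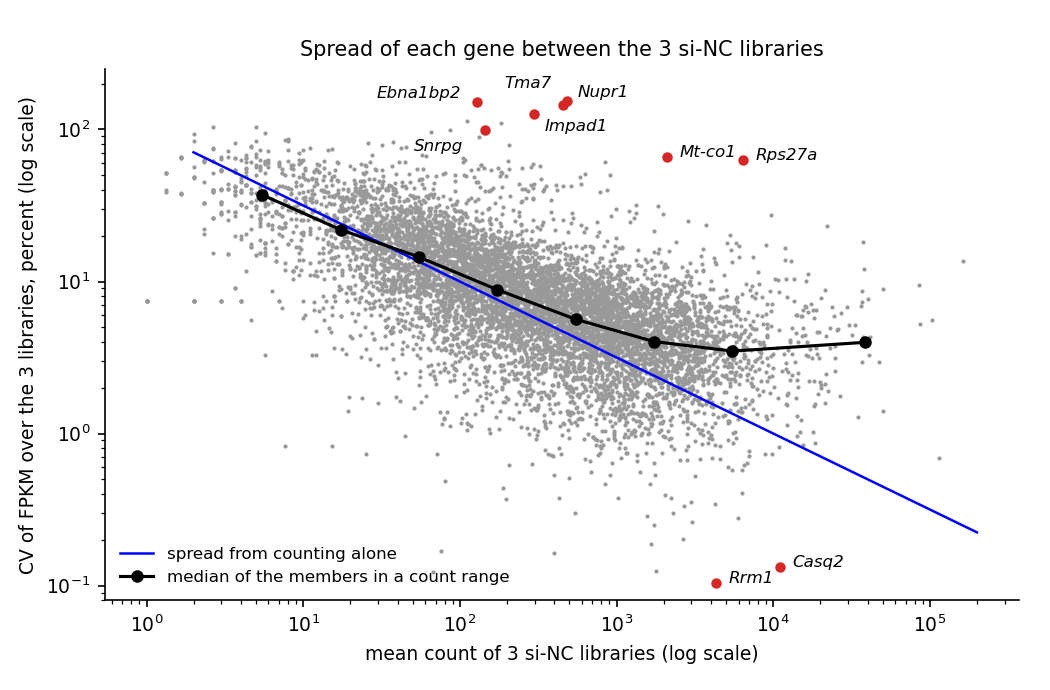
Each grey point is 1 of the 7892 expressed genes, with its mean count (horizontal, log scale) and the CV of its FPKM over the 3 si-NC libraries (vertical, percent, log scale). The blue line is the expected CV from counting alone, below which a median CV of 3 values tends to fall, and black points are medians of count ranges. The medians lie near the line up to about 100 counts and level off near 4% at the highest counts, and red genes are named extremes.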

How the data were processed

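Bulk mRNA of 3 si-NC cultures was analysed. The deposited count table holds the authors' counts per feature, and the deposited FPKM table holds those counts divided by feature length and scaled by 1 constant per library. The study's methods name HISAT2 and the Rnor_6.0 assembly; the submitters' processing notes name Bowtie 0.12.2 and the mouse build mm8, which the rat gene identifiers in the files do not match. No source used here names the counting tool, its use of strand or how unannotated transcripts were assembled.

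The genes and the 48 lists (725 gene rows) were chosen with earlier results of these data known, and 24 listed symbols had no row and are not analysed here. Named genes were Dyrk1a, the 30 highest by mean FPKM, all isoform pairs but one that is not reported here, up to 6 highest members and the defining members under 1 of each list, the 10 most and 5 least variable genes with a mean of at least 100 counts, and the 3 nearest the threshold on each side; a few further list members were named after their values were seen. A gene was covered where an unannotated transcript on its strand spanned at least 50% of it. No test between groups was made; shares and SDs were computed with pandas 2.3.3. The biological coefficient of variation came from edgeR 4.0.16 with TMM factors, an intercept and at least 10 counts in 2 libraries, and was tested on simulated data. Alternative scalings of this coefficient were edgeR RLE factors and library size alone, and DESeq2 size factors were computed but entered no result. Promoters were matched by symbol. Intervals were not computed; with n = 3 the SD itself is imprecise, and 3 counts correspond to 0.291, 0.255 and 0.252 CPM in the libraries.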

Additional observations from a re-analysis of the deposited data

Results flagged for a closer look

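Signal was present in the features that the description leaves out, the unannotated transcripts. They took 17.24, 17.24 and 17.26% of the counts of si-NC replicates 1, 2 and 3, and 4494 of the 10152 had FPKM of at least 1 in all 3 libraries. Of these 4494, 2603 covered at least 50% of a protein-coding gene on its strand. The highest by mean FPKM, on chromosome 12, had 2265, 2484 and 2601, and its span overlapped the end of Actb. Whether reads of Actb were counted there was not tested. There is no background sample to set the signal of the unannotated transcripts against. With 3 libraries a group is too small to judge whether 1 library stands apart, though single genes set by 1 library are named above.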

How the results depend on the processing

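The number of expressed genes stayed within 1.5 times of 7892 under 7 planned or added settings, among them FPKM of at least 0.5 (9215) or 2 (6682), TPM of at least 1 (9051), adding the covering unannotated transcripts to their gene (9999), and, chosen after seeing the data, dropping covered genes (6984) or means under 10 counts (7579). Counting unannotated transcripts as genes gave 12386. Leaving out one replicate gave 8124 to 8137 genes, 56 to 58 expressed cell type markers (56 with all), 5 pairs with the mature form higher by listed values (5 with all, 3 of them against a covered gene under 1) and a biological coefficient of variation of 8.62 to 10.17%. Other scalings left that coefficient between 10.2 and 10.21%, and it was 10.7% with every feature above 0, 8.56% over the expressed genes alone and 6.93% with at least 100 counts in every library. The share of FPKM held by the sarcomere lists (2.98% in the mean) became 3.29% of annotated FPKM only and 2.53% of counts, the cause being the denominator and the length scaling, and was 2.91 to 3.03% with one replicate left out. With the covering transcripts added, the mature form was higher in 7 pairs. No ratio of a readable pair turned its sign. Lengths, 3 libraries and the rows listed at 0 limit all levels. No paired analysis was possible because the results come from no test.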

Other observations

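Among the 100 highest genes, 23 belong to none of the 48 lists, and they add secreted and lysosomal products to the picture. Spp1, osteopontin, a secreted matrix and cytokine-like protein, had FPKM of 1414, 1382 and 1454. Clu, clusterin, a secreted chaperone (917, 946 and 908), Gpx3, the secreted glutathione peroxidase (869, 832 and 870.2), Igfbp7 (790.2, 716 and 824) and Pcolce, which helps to cut procollagen (793, 783 and 777), were at similar heights. The cathepsins Ctsb (855, 877 and 847), Ctsd (801, 784 and 809) and Ctsl (781, 793 and 799.9) and the tetraspanins Cd63 (1727, 1503 and 1779.6) and Cd81 (1179, 1341 and 1243) were all among the 100. Tpm4, a cytoskeletal tropomyosin, stood at 1528, 1522 and 1548, above the 199.7, 189.9 and 208 of Tpm1, which is covered. The transcript over Tpm1 had 0 counts in every library. Slc25a3, the mitochondrial phosphate carrier, was at 1011, 1045 and 1076. These genes were named after their values were seen.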
